A study of Homo sapiens with 8 samples.

Results

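The genes described here are 40 genes of ribosome biogenesis, measured in cells labelled as RS4;11 that carry a BTG1 or a control short hairpin RNA (shRNA) and were exposed to prednisolone or vehicle. They were taken as a fixed list of symbols, and each was read from the array feature (transcript cluster) annotated with its symbol, using the brightest on average over all arrays where several carried it. A cluster was found for 36 of the 40 genes, among 17881 clusters in all. WDR43, BOP1, DDX18 and GNL3 had none and are not analysed here. For 9 of the 36 genes the cluster carries further symbols, so its signal may not come from the listed gene alone. Most of these symbols are small nucleolar RNAs (snoRNAs) encoded in introns of the host gene. Others include SPNS2 on the MYBBP1A cluster, HIGD2A on that of NOP16, IDI2 on that of GTPBP4 and LMBRD1 on that of NPM1.

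Ribosomes are built in the nucleolus, where RNA polymerase I transcribes a long precursor ribosomal RNA. Small nucleolar ribonucleoproteins (snoRNPs) modify that precursor, the small subunit processome folds and cleaves the part that becomes the small subunit, and a second series of assembly factors builds the large subunit. Growing cells, leukaemia cells among them, spend much of their transcription and translation on this pathway, and the transcription factor MYC is a known activator of many of its genes. Glucocorticoids such as prednisolone slow growth and kill sensitive lymphoid leukaemia cells.

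RS4;11 is an established human line of acute lymphoblastic leukaemia of B-cell precursor origin with a rearranged KMT2A gene. Per the labels all cells were transduced with an shRNA vector and collected after 8 h. There were 4 groups of 2 arrays each: BTG1 shRNA with prednisolone, BTG1 shRNA with vehicle, control shRNA with prednisolone and control shRNA with vehicle. Total RNA was hybridised to Affymetrix Human Exon arrays, and the number of arrays limits the precision. The labels give neither the prednisolone dose nor whether the cells were single clones or pools, and they do not say that duplicates were separate cultures, so p-values measure only how these arrays scatter, and that scatter may be technical.

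The BTG1 cluster, which also carries LINC01619, read 8.14 and 7.80 (log2) for BTG1 shRNA with prednisolone, 7.15 and 7.42 for BTG1 shRNA with vehicle, 10.51 and 10.70 for control shRNA with prednisolone and 9.34 and 9.36 for control shRNA with vehicle. It was lower on the BTG1 shRNA arrays by both comparisons (log2 difference -2.64 under prednisolone and -2.06 under vehicle, SE 0.20, limma adjusted p = 0.000107 and 0.000388). The same arrays differed in lineage markers. Of 12 T-cell markers, 11 were higher with BTG1 shRNA under either treatment, and their mean log2 value was 8.78 or more on the BTG1 shRNA arrays against 5.23 or less on the control shRNA arrays. Of 13 B-lineage markers with a cluster, 9 were lower under prednisolone and 11 under vehicle, with mean values of 4.30 to 4.63 against 7.87 to 8.41. CD3D, a subunit of the T-cell receptor complex, read 10.97 to 11.49 against 3.24 to 3.42, and the B-cell transcription factor PAX5 read 4.06 to 4.52 against 9.34 to 10.16. The markers of the arrays labelled BTG1 shRNA thus go against the B-cell origin of RS4;11, and these arrays may not come from that line. Every comparison of arrays with different shRNA labels carries both the shRNA and this lineage difference, which cannot be told apart. In what follows BTG1 shRNA and control shRNA stand for the labels of the arrays. One array, control shRNA vehicle array 1, had a narrower spread of values than the others (interquartile range 2.95 log2 units, against 3.39 to 3.80), and results that rest on it are given with and without it. In these bulk samples fewer cells of a type and less RNA per cell cannot be told apart.

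Values below are log2 expression values, array 1 before array 2 within a group. A difference of 1 on this scale is a 2-fold difference. Signal depends on the probes of a cluster, so levels are compared between groups and not between genes. Most of the 36 genes gave strong signals: 31 lay in the brightest 25% of clusters by mean value, and BYSL and UTP20 alone dropped below the 50th percentile of an array, with a lowest percentile of 42.2 for BYSL. A gene was called when its limma p, corrected with the Benjamini-Hochberg method across the 17881 clusters of that comparison, was under 0.05. With 2 arrays against 2, an exact permutation test on a single gene could not go below p = 0.3333 (two-sided), so calls rest on the spread shared across groups and clusters in the limma fit.

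**Figure D1:**
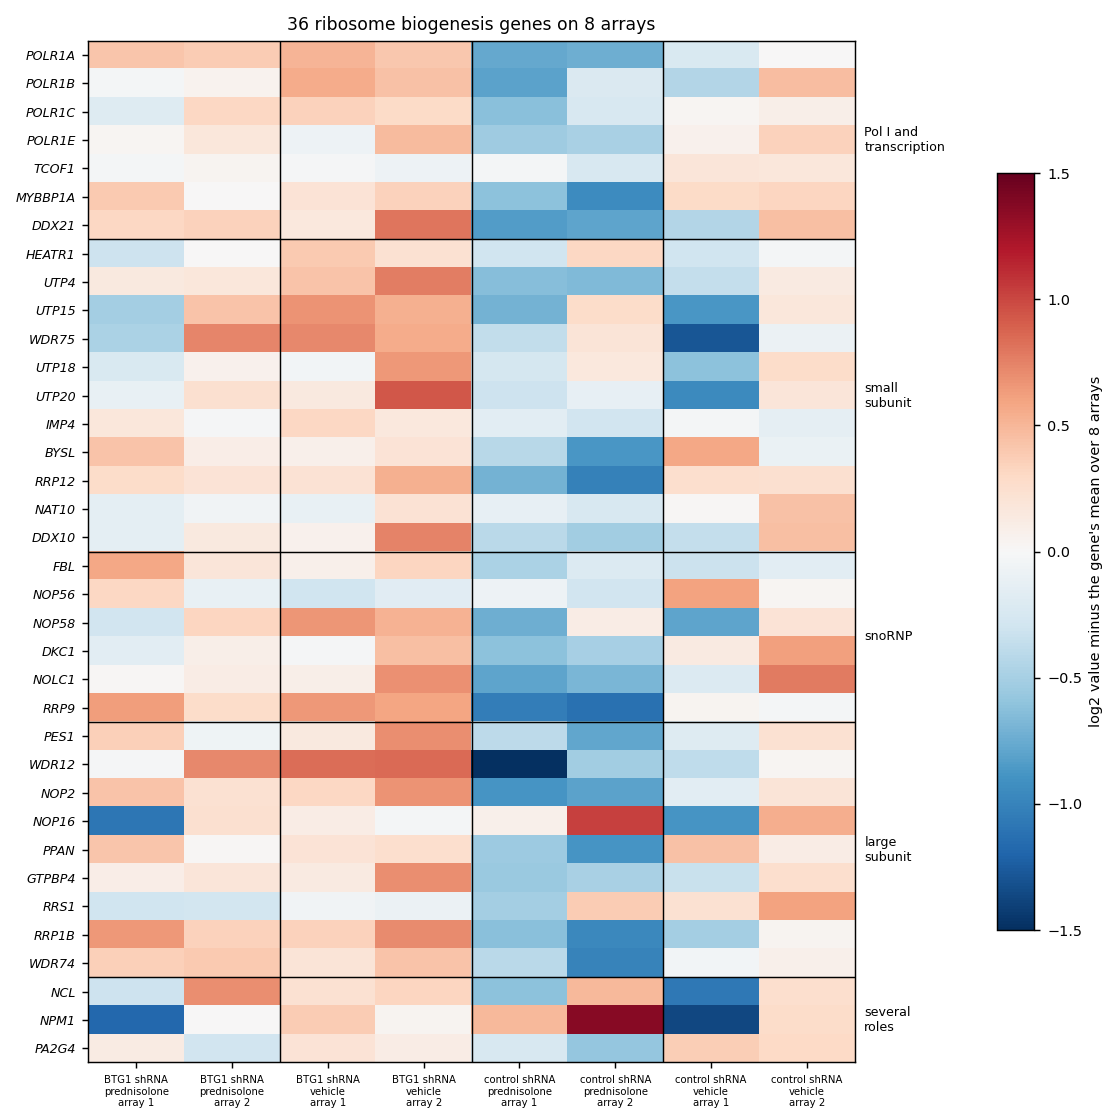
Each row is 1 of the 36 genes, grouped by role, and each column an array. Colour gives the log2 value minus the gene's own mean over 8 arrays, and most rows are lowest (blue) on the 2 control shRNA prednisolone arrays, with exceptions such as NOP16 and NPM1.

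The first comparison asked how prednisolone changed these genes in control shRNA cells. Of the 36 genes 2 fell: RRP9, a protein of the U3 snoRNP that guides the first cleavages of the ribosomal RNA precursor, and RRP12, which takes part in maturation and export of the small subunit. No member rose. In all, 28 of 36 genes (77.8%) had a lower mean with prednisolone, against 66.3% of all clusters and 43.2% of the brightest 25% of clusters, and the median log2 difference was -0.52, against -0.16 over all clusters and 0.08 in the brightest 25%. By the call rule 0 of 36 genes were higher, where 0.928% of all clusters were, and 2 of 36 were lower, where 0.587% of all clusters were. An unadjusted p under 0.05 was reached by 14 of 36 genes in the lower direction, where 6.57% of all clusters did so, and by 1 in the higher direction, where 7.56% did.

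RRP9 read 7.02 and 6.93 with prednisolone and 8.10 and 8.03 with vehicle in control shRNA cells. The groups were separate and each pair of arrays differed by little, giving a log2 difference of -1.08 (SE 0.18, limma adjusted p = 0.0369), or 2.12-fold lower. RRP12 read 6.18 and 5.88 with prednisolone against 7.14 and 7.14 with vehicle, a log2 difference of -1.11 (SE 0.20, limma adjusted p = 0.0447), or 2.16-fold lower. Both calls stood close to the threshold: RRP9 kept its call in 5 of 15 alternative settings and RRP12 in 4 of 15, with adjusted p ranging over 0.0164 to 0.343 for RRP9 and 0.0262 to 0.409 for RRP12. Leaving out any single array ended the RRP12 call, and leaving out any array other than control shRNA vehicle array 2 ended the RRP9 call.

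Among the 7 genes of RNA polymerase I and nucleolar transcription, all 7 had a lower mean with prednisolone and 6 had groups that did not overlap, but 0 were called. MYBBP1A, a nucleolar protein that binds MYB and takes part in ribosomal RNA synthesis, came nearest: it read 7.86 and 7.53 with prednisolone against 8.77 and 8.80 with vehicle, a log2 difference of -1.08 (limma adjusted p = 0.0568). POLR1A, the largest catalytic subunit of the polymerase, read 6.79 and 6.82 with prednisolone against 7.32 and 7.56 with vehicle, and the nucleolar RNA helicase DDX21 read 7.80 and 7.85 against 8.20 and 9.10. For DDX21 the vehicle arrays differed from each other by more than the prednisolone arrays differed from the lower of them. POLR1B, the second largest subunit, read 5.62 and 6.20 with prednisolone against 5.98 and 6.88 with vehicle, and these groups overlapped. POLR1C, a subunit shared with RNA polymerase III, read 7.55 and 7.94 against 8.21 and 8.26, without overlap. POLR1E, another polymerase subunit, and TCOF1, the treacle protein of ribosomal DNA transcription, had differences of -0.72 and -0.30.

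The 11 small subunit genes were split. RRP12 was called, 6 of the 11 had a lower mean, and the median difference was -0.14. BYSL, a factor of late small subunit maturation, read 5.04 and 4.58 with prednisolone against 6.03 and 5.36 with vehicle. UTP4, which belongs to the processome subcomplex that associates early with the precursor RNA, read 8.93 and 8.92 with prednisolone against 9.22 and 9.72 with vehicle. Both genes had separate groups and neither was called (log2 differences -0.88 and -0.55). In the same subcomplex HEATR1 read 8.01 and 8.61 with prednisolone against 8.00 and 8.28 with vehicle, and WDR75 read 7.12 and 7.68 against 6.20 and 7.40. Those groups overlapped, with differences of 0.17 and 0.60. The remaining small subunit genes, UTP15, UTP18, UTP20, IMP4, NAT10 and DDX10, lay between -0.51 (DDX10) and 0.16 (UTP20).

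Of the 6 snoRNP genes all 6 had a lower mean and 4 had separate groups. DKC1, the pseudouridine synthase of box H/ACA snoRNPs, read 8.36 and 8.47 with prednisolone against 9.10 and 9.58 with vehicle, a difference of -0.93 that was not called (limma adjusted p = 0.145). NOLC1, a chaperone of snoRNPs, differed by -1.03 (SE 0.34) and was not called either. The 3 core proteins of box C/D snoRNPs differed less. NOP56 read 8.51 and 8.29 with prednisolone against 9.19 and 8.62 with vehicle (-0.50), NOP58 8.94 and 9.79 against 8.88 and 9.88 (-0.02), and the methyltransferase FBL 9.70 and 9.98 against 9.85 and 10.02 (-0.09).

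Of the 9 large subunit genes 8 had a lower mean, 7 without overlap, and 0 were called. PPAN, an assembly factor whose cluster also carries PPAN-P2RY11 and SNORD105, read 6.87 and 6.52 with prednisolone against 7.85 and 7.52 with vehicle (-0.99, limma adjusted p = 0.0983). NOP2, a methyltransferase of the large subunit RNA, read 7.54 and 7.62 against 8.26 and 8.62 (-0.86). WDR74 read 8.81 and 8.21 with prednisolone against 9.18 and 9.28 with vehicle (-0.72). These 3 genes had separate groups. WDR12, which works in a complex with PES1 and BOP1, read 6.80 and 7.78 against 7.93 and 8.34 (-0.84), RRP1B 7.83 and 7.49 against 7.95 and 8.50 (-0.57), and the GTPase GTPBP4 8.07 and 8.14 against 8.30 and 8.87 (-0.48). Their groups were separate too, with less room between the nearest arrays. PES1 and RRS1 differed by -0.61 and -0.48.

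Nucleolin, nucleophosmin and PA2G4, which have roles in several steps, did not move together. PA2G4 read 11.72 and 11.38 with prednisolone against 12.33 and 12.26 with vehicle (-0.75, limma adjusted p = 0.169). NCL (nucleolin) read 8.64 and 9.74 against 8.19 and 9.52, a spread within each pair larger than the difference of 0.34. The cluster used for NPM1 (nucleophosmin) read 7.67 and 8.56 against 5.82 and 7.46, a difference of 1.47 (SE 0.60, limma adjusted p = 0.333) that the other clusters carrying NPM1 did not share (-0.20 and -0.05).

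**Figure D2:**
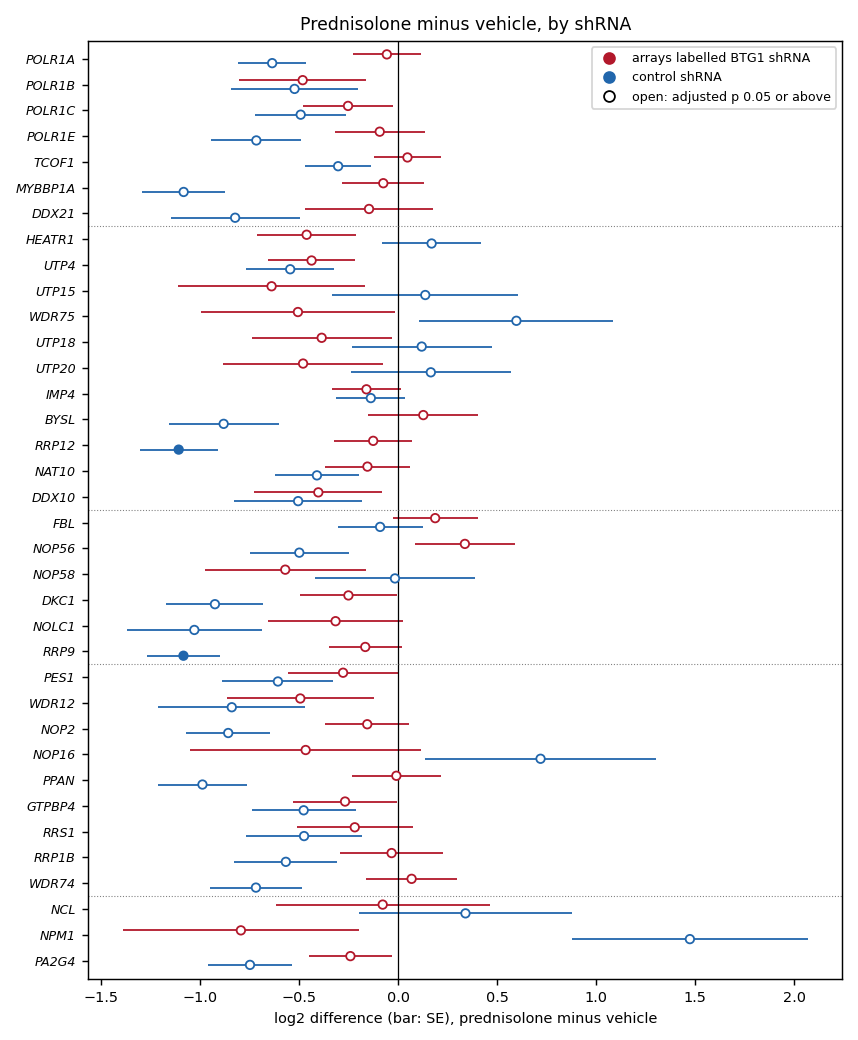
Points give the log2 difference, prednisolone minus vehicle, for each gene on the arrays labelled BTG1 shRNA (red) and on the control shRNA arrays (blue), and bars give the SE from the limma fit. Filled points are called, which applies to RRP12 and RRP9 in control shRNA cells, and dotted lines separate the roles.

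Groups without overlap were frequent in control shRNA cells: 24 of 36 genes were lower on both prednisolone arrays than on either vehicle array, against 26.4% of all clusters, and 1 of 36, the cluster used for NPM1, was higher without overlap, against 15.3%. The size of the shift rested on the vehicle arrays. Without control shRNA vehicle array 1 the median difference was -0.73, against -0.03 over all clusters, 34 of 36 genes had a lower mean and 0 were called. Without control shRNA vehicle array 2 the median was -0.30, against -0.26 over all clusters, 27 genes had a lower mean and 1 was called. Measured against the narrower array alone, the genes thus lay close to all clusters. How they compared there with equally bright clusters was not tested. With both vehicle arrays the brightest clusters, which include 31 of the 36 genes, had a median of 0.08. The mean log2 value of 12 proliferation markers was 9.71 and 10.00 with prednisolone against 9.42 and 9.87 with vehicle, with 0 called and a median difference of 0.12, the opposite direction. That direction rested on control shRNA vehicle array 1, the narrower one. Vehicle array 2, at 9.87, lay between the 2 prednisolone arrays, so without array 1 no rise of these markers was seen. By the 2-fold criterion that the series' design names, 4 of 36 genes were lower (RRP12, RRP9, MYBBP1A and NOLC1) where 1.39% of all clusters were, and 1, the cluster used for NPM1, was higher where 3.86% were.

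Promoter sequence was available for 29 of the 36 genes as windows of 300 bases, from 250 before to 50 after the annotated start (RefSeq, GRCh38.p14). NOLC1, NOP58, POLR1E, RRP12, RRP1B, RRS1 and TCOF1 had no entry. The E-box CACGTG, the sequence that MYC and other basic helix-loop-helix proteins bind, was searched because many genes of this pathway are known MYC targets. It reads the same on both strands. It occurred in the windows of 12 of 29 genes (41.4%), of 24 of 75 other ribosome biogenesis genes (32.0%) and of 10.9% of protein-coding genes. Counted over windows, the motif was in 12 of 35 windows of the 29 genes (34.3%), against 7.26% of all 35116 windows. The glucocorticoid response element, searched as AGAACA, any 3 bases and TGTTCT, also the same on both strands, was in 0 windows of these genes and in 1 of all 35116 windows. A match describes the letters of a window and does not show binding.

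The RRP9 window is shown whole because RRP9 was called in both comparisons that hold a call, and 4 shorter stretches show the motif in other genes called in the comparisons that follow. Capitals mark the E-box, all are written in the direction of the gene, and positions are on GRCh38.p14. RRP9 lies at chr3:51941855-51942154 on the minus strand, with the motif starting 5 bases before the start site. DDX21 lies at chr10:68956586-68956651 on the plus strand (31 before), UTP4 at chr16:69132603-69132668 on the plus strand (16 before), MYBBP1A at chr17:4555335-4555387 on the minus strand (27 after) and NOP2 at chr12:6568242-6568286 on the minus strand (35 after).
RRP9: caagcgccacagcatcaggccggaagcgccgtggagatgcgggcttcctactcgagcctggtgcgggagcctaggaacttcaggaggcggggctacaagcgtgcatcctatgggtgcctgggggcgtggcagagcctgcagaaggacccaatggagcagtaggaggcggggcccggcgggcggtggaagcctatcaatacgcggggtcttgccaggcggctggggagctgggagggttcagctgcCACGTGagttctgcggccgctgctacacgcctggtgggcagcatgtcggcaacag
DDX21: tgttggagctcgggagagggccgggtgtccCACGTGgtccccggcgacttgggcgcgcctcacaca
UTP4: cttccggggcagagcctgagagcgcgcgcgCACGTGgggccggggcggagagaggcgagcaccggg
MYBBP1A: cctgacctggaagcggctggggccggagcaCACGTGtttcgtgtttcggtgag
NOP2: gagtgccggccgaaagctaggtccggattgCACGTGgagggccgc
Among the 11 genes called in any comparison, 9 had a promoter entry, and these 5 of the 9 (55.6%) held the motif.

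On the arrays labelled BTG1 shRNA the same treatment gave 0 called genes of 36, where 0.0% of all clusters were called in either direction. No gene had an unadjusted p under 0.05, which 186 of all 17881 clusters reached in limma. The means were lower with prednisolone for 31 of 36 genes (86.1%), against 41.9% of all clusters and 66.8% of the brightest 25%. The median difference was -0.23, against 0.04 over all clusters and -0.09 in the brightest 25%. Groups were separate and lower for 8 genes (22.2%), where 10.5% of all clusters were, and separate and higher for NOP56, where 18.0% were. The shift rested on BTG1 shRNA vehicle array 2: without it the median was -0.04, against 0.02 over all clusters, and 23 of 36 genes had a lower mean.

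With prednisolone on the arrays labelled BTG1 shRNA, RRP9 stood at 8.68 and 8.34 against 8.70 and 8.65 with vehicle, and RRP12 at 7.17 and 7.10 against 7.10 and 7.43. Both differences were small (-0.17 and -0.13) beside those in control shRNA cells. MYBBP1A read 8.88 and 8.49 against 8.69 and 8.83, and PPAN 7.82 and 7.42 against 7.61 and 7.66, with overlapping groups and differences of -0.08 and -0.01. POLR1A read 7.97 and 7.94 with prednisolone against 8.06 and 7.96 with vehicle (-0.06).

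The 8 genes lower without overlap were POLR1B, HEATR1, UTP4, UTP15, NOP58, WDR12, RRS1 and NPM1. UTP4 read 9.72 and 9.75 with prednisolone against 10.01 and 10.35 with vehicle, WDR12 8.29 and 9.03 against 9.15 and 9.16, and NOP58 9.39 and 10.00 against 10.34 and 10.19. For WDR12 and NOP58 the first prednisolone array gave most of the difference. POLR1B read 6.40 and 6.47 with prednisolone against 6.98 and 6.86 with vehicle, HEATR1 7.99 and 8.31 against 8.70 and 8.53, and NPM1 6.01 and 7.20 against 7.57 and 7.23. The differences of these 6 named genes lay between -0.80 (NPM1) and -0.44 (UTP4), each with an adjusted p of 1. NOP56 read 8.90 and 8.46 with prednisolone against 8.28 and 8.41 with vehicle (0.34).

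The difference between the 2 prednisolone effects, BTG1 shRNA minus control shRNA, was tested directly. None of the 36 genes was called by limma (0.028% of all clusters were called higher and 0.106% lower), and the lowest adjusted p was 0.379. An unadjusted p under 0.05 was reached by 9 of 36 genes in the positive direction, where 4.27% of all clusters did so, and by 1 in the negative direction, where 5.04% did. MYBBP1A had a difference of effects of 1.01 (95% interval 0.32 to 1.70), RRP12 of 0.98 (0.34 to 1.63), PPAN of 0.98 (0.24 to 1.72) and RRP9 of 0.92 (0.31 to 1.52). These positive values mean that the log2 drop was smaller on the BTG1 shRNA arrays. UTP4, by contrast, had a difference of effects of 0.11 (-0.62 to 0.84), with a negative prednisolone difference under both shRNAs. The median over the 36 genes was 0.30, against 0.20 over all clusters and -0.17 in the brightest 25%, and 26 of 36 (72.2%) were positive, against 65.2% of all clusters and 39.8% of the brightest 25%. Without control shRNA vehicle array 1, the narrower one, the median was 0.50, against 0.08 over all clusters, and without array 2 of that group it was 0.17, against 0.30. After quantile normalization it was 0.52, against 0.06 over all clusters, and with each array centred on its median 0.13, against 0.03. How far the genes stood from all clusters in this comparison thus depended on the array left out and on the scaling. RRP9 and RRP12 passed the threshold in control shRNA cells and not on the BTG1 shRNA arrays, but this test does not show that their response differed between the shRNAs.

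**Figure D3:**
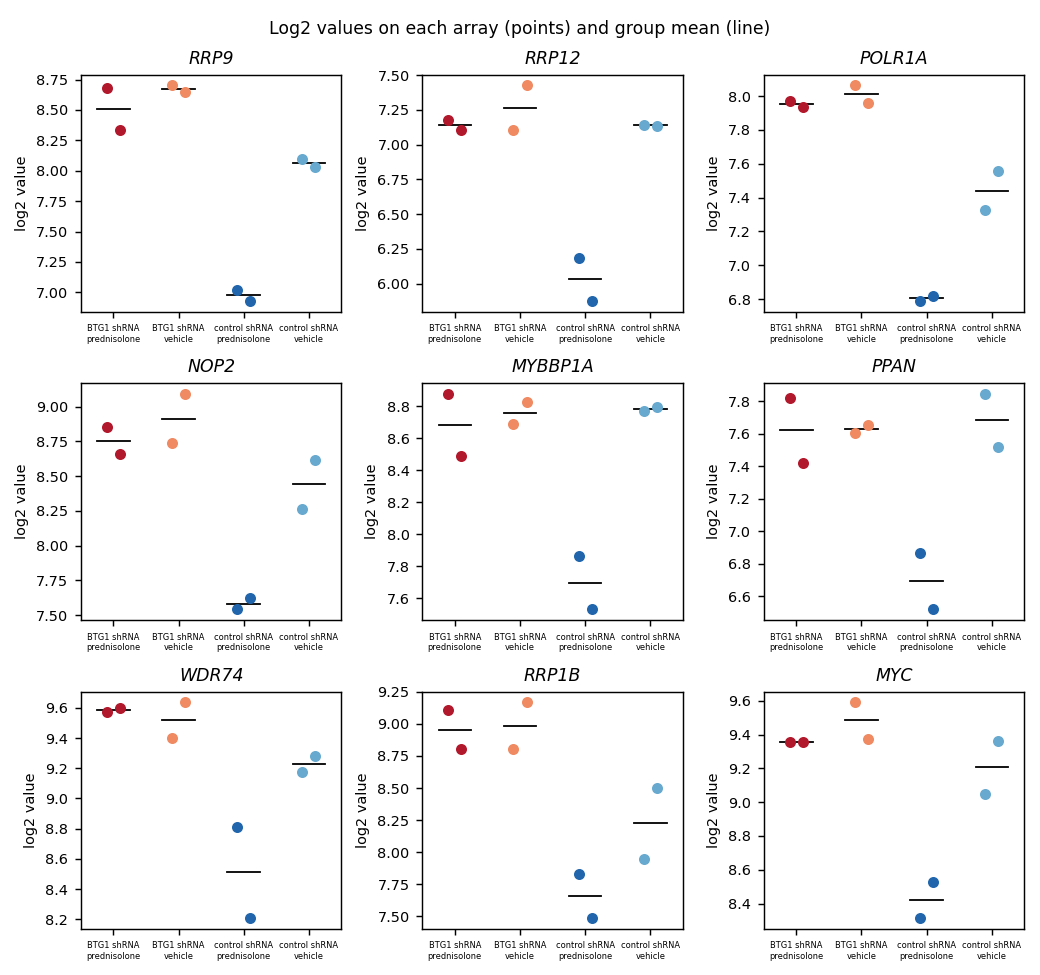
Points are the log2 values of 8 ribosome biogenesis genes and MYC on each array, with array 1 left of array 2 and the group mean as a line, on axes that do not start at 0. In every panel the 2 control shRNA prednisolone arrays are the lowest of the 8, as for RRP9 at 7.02 and 6.93.

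Under prednisolone, BTG1 shRNA arrays were set against control shRNA arrays. This comparison uses the same control shRNA prednisolone arrays as the first one and the same BTG1 shRNA prednisolone arrays as the second, so the 3 results are not independent. Of 36 genes 11 were called higher with BTG1 shRNA, where 10.0% of all clusters were (12.6% of the brightest 25%), and 0 were called lower, where 7.51% were. The median difference was 0.52, against 0.04 over all clusters, and 31 of 36 genes were positive, against 57.9%. Groups were separate and higher for 23 genes, where 28.4% of all clusters were. Groups were separate and lower for 1 of 36, the cluster used for NPM1, where 21.5% of clusters were. The T-cell and B-lineage marker differences given above lie on the same arrays, and their part in this result was not tested. The 12 proliferation markers had mean log2 values of 9.34 and 9.65 with BTG1 shRNA against 9.71 and 10.00 with control shRNA, the opposite direction, with 1 called lower.

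Calls came from all roles except the proteins of several roles. In the large subunit group 5 of 9 genes were higher: NOP2, RRP1B, WDR74, WDR12 and PPAN. NOP2 read 8.86 and 8.66 on the BTG1 shRNA prednisolone arrays against 7.54 and 7.62 on the control shRNA prednisolone arrays, and RRP1B read 9.10 and 8.80 against 7.83 and 7.49. WDR74 read 9.57 and 9.60 against 8.81 and 8.21. In all 3 genes the groups stood further apart than the arrays within a group. NOP2 rose by 1.17 (SE 0.21, limma adjusted p = 0.00722), RRP1B by 1.29 (SE 0.26, adjusted p = 0.0119) and WDR74 by 1.08 (SE 0.23, adjusted p = 0.0161). WDR12 and PPAN, whose BTG1 shRNA and control shRNA values are given above, were higher by 1.37 (SE 0.37) and 0.93 (SE 0.22). GTPBP4 read 8.73 and 8.81 against 8.07 and 8.14, a separate pair of groups that was not called (0.66, limma adjusted p = 0.145).

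RRP9 was the one called snoRNP gene of 6 and had the largest difference of the 36, 1.53 (SE 0.18, limma adjusted p = 0.00103), or 2.89-fold. The BTG1 shRNA arrays (8.68 and 8.34) lay far above the control shRNA arrays (7.02 and 6.93) relative to the spread within either group. FBL read 10.76 and 10.37 with BTG1 shRNA against 9.70 and 9.98 with control shRNA, a difference of 0.72 just outside the threshold (limma adjusted p = 0.0588). DKC1 read 8.81 and 9.06 against 8.36 and 8.47 (0.52).

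Of the 7 polymerase I and transcription genes 3 were higher. POLR1A differed by 1.15 (SE 0.17, limma adjusted p = 0.00295), or 2.22-fold, at 7.97 and 7.94 against 6.79 and 6.82, with nearly equal arrays in each group. MYBBP1A, whose cluster also carries SPNS2, differed by 0.98 (adjusted p = 0.0151). DDX21 read 8.96 and 8.99 with BTG1 shRNA and differed by 1.15 (SE 0.32, adjusted p = 0.0495). POLR1C read 7.98 and 8.49 against 7.55 and 7.94, groups that barely separated, and was not called. Of the 11 small subunit genes RRP12 (1.11, SE 0.20, limma adjusted p = 0.0066) and UTP4 (0.81, SE 0.22, adjusted p = 0.042) were higher. BYSL read 5.89 and 5.56 with BTG1 shRNA against 5.04 and 4.58 (0.91, adjusted p = 0.0645). WDR75 read 7.02 and 8.22 against 7.12 and 7.68, with overlapping groups.

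Among the proteins of several roles PA2G4 read 12.08 and 11.68 with BTG1 shRNA against 11.72 and 11.38 with control shRNA, and NCL read 8.95 and 9.96 against 8.64 and 9.74. Both pairs of groups overlapped. The cluster used for NPM1 differed by -1.51 (SE 0.60, limma adjusted p = 0.145). A cluster that also carries CLEC2D differed by -5.25 (limma adjusted p = 0.000258), and the one annotated to NPM1 alone, near the bottom of the scale, by 0.30.

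The number of called genes depended on single arrays. It was 3 without BTG1 shRNA prednisolone array 1, 4 without control shRNA prednisolone array 2, 7 without BTG1 shRNA prednisolone array 2 or either BTG1 shRNA vehicle array, and at most 14 without any other array. POLR1A and RRP9 kept their calls in all 15 alternative settings run, and NOP2 in 14 of 15, losing it without BTG1 shRNA prednisolone array 1 (adjusted p = 0.0592). The remaining 8 lost it in 2 to 7 settings each.

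**Figure D4:**
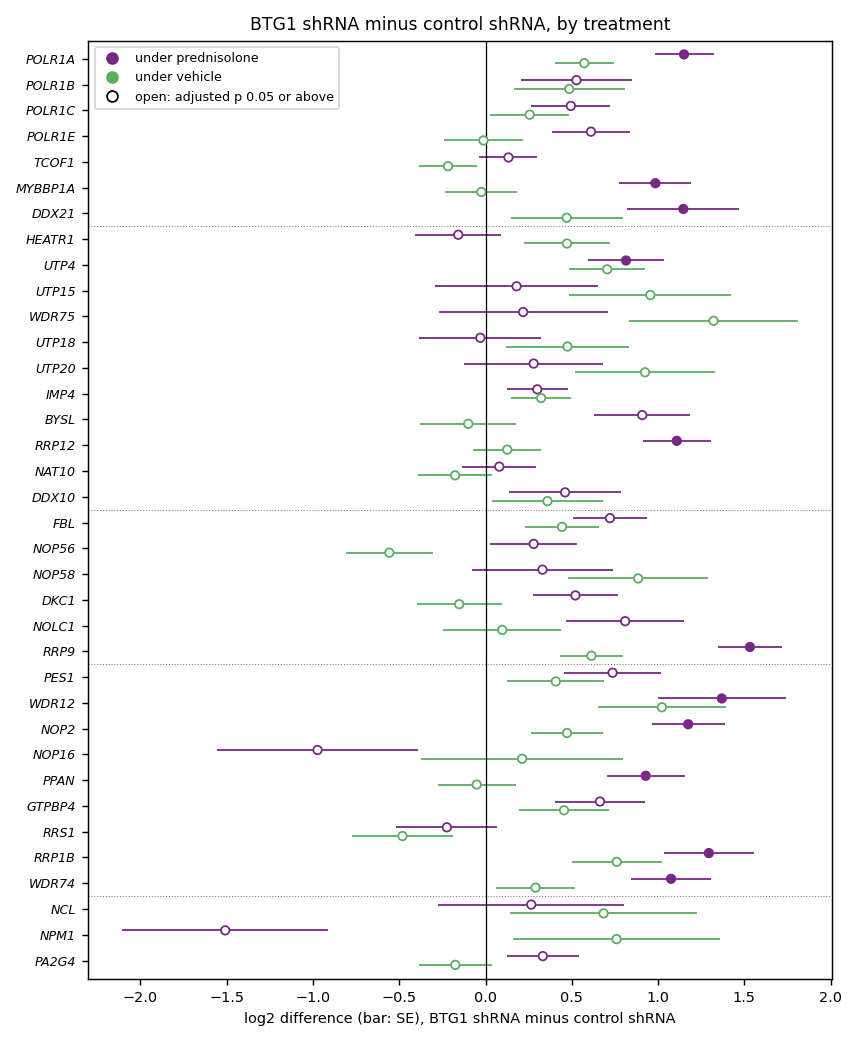
Points give the log2 difference, BTG1 shRNA minus control shRNA, for each gene under prednisolone (purple) and under vehicle (green), with bars for the SE. Filled points are called: 11 genes under prednisolone and 0 under vehicle. The gap between a gene's 2 points equals its difference of the 2 prednisolone effects, for which 0 of 36 genes were called.

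Under vehicle 0 of 36 genes were called in limma, where 8.46% of all clusters were called higher and 6.21% lower, and 6 of 36 (16.7%) had an unadjusted p under 0.05, all higher with BTG1 shRNA, a share near the 15.7% of all clusters. The median difference was 0.42, against -0.15 over all clusters and 0.24 in the brightest 25%, and 26 of 36 genes were positive, against 39.3% of all clusters and 65.8% of the brightest 25%. Groups were separate and higher for 14 genes, where 24.5% of clusters were, and separate and lower for TCOF1, NOP56, RRS1 and PA2G4, where 34.3% were. RRP9 had 8.70 and 8.65 on the BTG1 shRNA vehicle arrays against 8.10 and 8.03 on the control shRNA vehicle arrays (0.61, limma adjusted p = 0.0675). POLR1A was next, with 8.06 and 7.96 against 7.32 and 7.56 (0.57, adjusted p = 0.0676), and then UTP4, with a difference of 0.70 (adjusted p = 0.078).

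With BTG1 shRNA and vehicle NOP2 stood at 8.74 and 9.09, WDR74 9.40 and 9.64, RRP1B 8.80 and 9.17 and DDX21 8.80 and 9.44. Of these DDX21 overlapped with the control shRNA vehicle arrays, and the other 3 lay above them. WDR75 read 8.20 and 8.05 with BTG1 shRNA against 6.20 and 7.40, the largest difference under vehicle at 1.32 (SE 0.49, adjusted p = 0.128), with the control shRNA arrays far apart. WDR12, at 1.02 (SE 0.37, limma adjusted p = 0.12), was the other gene over 2-fold higher. These were 2 of 36 genes (5.56%), where 8.74% of all clusters were. Over 2-fold lower were 0 of 36, where 5.48% of all clusters were. NOP56 at 8.28 and 8.41 and PA2G4 at 12.17 and 12.07 with BTG1 shRNA lay below the control shRNA arrays. FBL read 10.25 and 10.50, POLR1C 8.52 and 8.46 and DKC1 8.95 and 9.42 with BTG1 shRNA. FBL and POLR1C lay above the control shRNA vehicle arrays and DKC1 overlapped with them. BYSL read 5.53 and 5.66, GTPBP4 8.76 and 9.32 and NCL 9.49 and 9.58 with BTG1 shRNA vehicle, each overlapping with control shRNA vehicle.

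The values under vehicle moved with single arrays of both groups. Without BTG1 shRNA vehicle array 2 the median difference was 0.23, against -0.13 over all clusters, and 0 genes were called. Without control shRNA vehicle array 1, the narrower one, it was 0.15, against -0.04, with 0 called. Without control shRNA vehicle array 2 it was 0.62, against -0.22, and 9 genes were called, 8 higher and 1 lower. Quantile normalization gave a median of 0.24, against -0.04 over all clusters. With the replicate number as a block 6 genes were called, all higher, though the labels do not say what that number stands for.

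**Figure D5:**
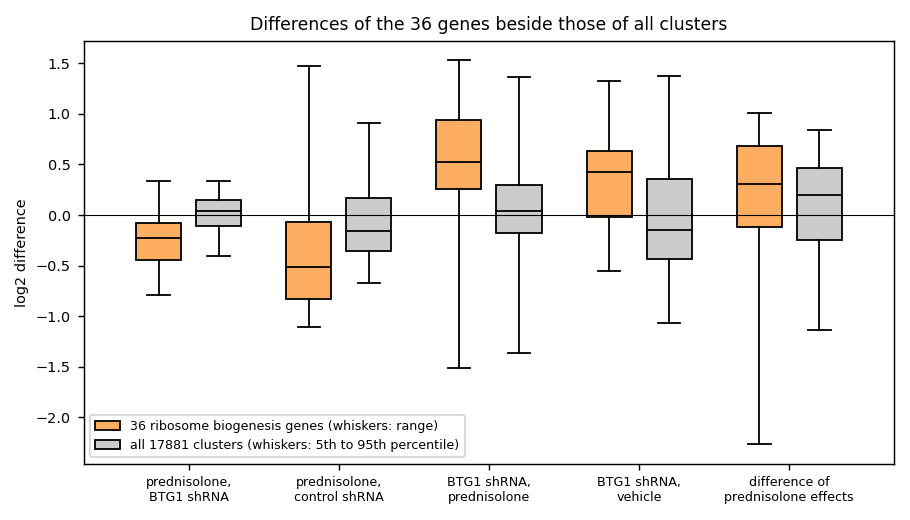
Boxes give the median and quartiles of the log2 differences in each of 5 comparisons, for the 36 genes (orange, whiskers over the full range) and for all 17881 clusters (grey, whiskers over the 5th to 95th percentile). The median of the 36 genes lies below that of all clusters in both prednisolone comparisons, at -0.23 with BTG1 shRNA and -0.52 with control shRNA, and above it in the other 3.

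Other genes of the same pathway, 83 with a cluster, were counted in the same way. In control shRNA cells 0 of 83 were called with prednisolone in limma, and the median difference was -0.21, against -0.16 over all clusters. At an unadjusted p under 0.05, 17 (20.5%) were lower, where 6.57% of all clusters were, and 0 higher, where 7.56% were. Groups were separate and lower for 33 (39.8%), where 26.4% of all clusters were, and separate and higher for 3 (3.61%), where 15.3% were. On the BTG1 shRNA arrays 0 were called, with a median of -0.27, against 0.04. Unadjusted, 5 (6.02%) were lower, where 0.341% of all clusters were, and 0 higher, where 0.699% were. The difference of the 2 prednisolone effects had a median of -0.19, against 0.20 over all clusters and -0.17 among the brightest clusters. Of the 83 genes 46 (55.4%) were negative, where 60.2% of the brightest clusters were. None was called (unadjusted p under 0.05 in 3 positive and 2 negative). The sign of this median was opposite to that of the 36 genes (0.30), but its value lay near that of the brightest clusters. How many of the 83 genes are that bright was not counted. With BTG1 shRNA against control shRNA under prednisolone 14 of 83 (16.9%) were higher, where 10.0% of all clusters were, and 1 was lower, where 7.51% were (median 0.39, against 0.04). Under vehicle 10 of 83 (12.0%) were higher, where 8.46% of all clusters were, and 0 lower, where 6.21% were (median 0.41, against -0.15). DDX56, an RNA helicase of large subunit assembly, read 8.99 and 9.03 with BTG1 shRNA under prednisolone against 7.32 and 7.13 with control shRNA, and 9.43 and 9.20 against 7.57 and 7.49 under vehicle. Its difference was 1.79 under either treatment (limma adjusted p = 0.000403 under prednisolone and 0.000452 under vehicle).

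Under prednisolone PWP2, of the small subunit processome, differed by 1.44 (limma adjusted p = 0.0018), the large subunit methyltransferase FTSJ3 by 1.58 (adjusted p = 0.00293) and URB2 by 1.37 (adjusted p = 0.00375). TEX10 was the one lower gene, at 6.37 and 7.01 with BTG1 shRNA against 8.05 and 8.21 with control shRNA (-1.44, adjusted p = 0.0245). Under vehicle the polymerase I subunits POLR1F and POLR1H (a cluster that also carries POLR1HASP) differed by 1.63 (adjusted p = 0.00208) and 1.65 (adjusted p = 0.000928), and WDR46 by 0.93 (adjusted p = 0.0101).

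MYC read 9.35 and 9.36 for BTG1 shRNA with prednisolone, 9.59 and 9.38 for BTG1 shRNA with vehicle, 8.32 and 8.53 for control shRNA with prednisolone and 9.05 and 9.36 for control shRNA with vehicle. As with RRP9 and RRP12, the control shRNA prednisolone arrays were lowest. The prednisolone difference was -0.13 with BTG1 shRNA and -0.78 with control shRNA (SE 0.19, limma adjusted p = 0.121), and neither was called. The difference of the 2 effects, 0.65, was not called either (adjusted p = 0.536). With BTG1 shRNA MYC was higher under prednisolone by 0.93 (SE 0.19, adjusted p = 0.0137) and differed by 0.28 under vehicle (adjusted p = 0.348). MYC was the 1 called gene of the 11 MYC network genes with a cluster in any of the 5 comparisons.

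Cytosolic ribosomal proteins are the building blocks that these factors assemble, and 33 of 54 listed genes had a cluster. Their medians were negative where BTG1 shRNA was set against control shRNA, the opposite sign to the 36 genes. Several of these clusters carry further symbols, such as NDUFS5 with RPL10 and DNALI1 with RPS27, so their signal may not come from ribosomal protein genes alone. With prednisolone 0 were called under either shRNA in limma (unadjusted p under 0.05 in 3 with control shRNA and 0 with BTG1 shRNA). With BTG1 shRNA against control shRNA under prednisolone 1 was higher (3.03%) and 2 lower (6.06%), where 10.0% and 7.51% of all clusters were. Under vehicle 1 was higher (3.03%) and 3 lower (9.09%), where 8.46% and 6.21% of all clusters were. The median differences were -0.19 under prednisolone, against 0.04 over all clusters, and -0.28 under vehicle, against -0.15. The higher cluster was that of RPS28, which also carries ARMC9, and the lower ones were RPL30 and RPS20 under both treatments and RPS4X under vehicle. The RPL30 cluster also carries SNORA72 and the RPS20 cluster SNORD54.

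Some values depend on which cluster stands for a gene. NOP16 was read from a cluster that also carries HIGD2A, with 8.00 and 8.95 on the control shRNA prednisolone arrays against 7.04 and 8.47 on the vehicle arrays (0.72). A dimmer cluster annotated to NOP16 alone read 7.33 and 7.38 against 8.14 and 8.29, the opposite direction (-0.86, limma adjusted p = 0.182). NPM1 was read from a cluster that also carries LMBRD1. A cluster annotated to NPM1 alone lay between 2.47 and 3.20 on all 8 arrays, near the bottom of the scale, although nucleophosmin is an abundant protein of growing cells. The third NPM1 cluster also carries CLEC2D and read 2.65 to 2.74 on the BTG1 shRNA arrays against 7.23 to 8.96 on the control shRNA arrays. The values and signs given for NPM1 and NOP16, also in the counts over the 36 genes, are those of the clusters used, and these arrays do not settle the direction of either gene.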

How the data were processed

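Total RNA of 8 samples was labelled with biotin and hybridised to exon arrays, and probes were summarised over core meta-probe sets of hg18 files, per the labels. Partek and robust multi-array averaging (RMA) are named per the submitters' processing notes; no version is stated in the sources used here. The deposited values are a score: log2 values from which most decimal points were lost. Of 143048 values 153 kept the point. It was put back behind digit 1, or behind digit 2 of a value that starts with 1, which raised the correlation between arrays to 0.872 to 0.995, against 0.446 to 0.587 before. The planned tests assumed plain log2 values and were kept on the restored ones.

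A model of 4 group means was fitted to all 8 arrays and 17881 clusters with limma 3.58.1 in R 4.3.3, without a filter, and tested on simulated data. It had 5 contrasts: the prednisolone effect with BTG1 and with control shRNA, the 2 shRNAs against each other under prednisolone and under vehicle, and the difference of the prednisolone effects. The Benjamini-Hochberg correction ran over all clusters (threshold 0.05). Values on every array are given for 24 genes: those called in any contrast and the 2 of each role with the highest moderated t per contrast. Of other lists up to 4 genes per direction and contrast are named, and MYC. Ribosomal proteins, and genes picked out in a count, were named after their values were seen. The genes and lists were chosen with earlier results of these data known. Symbols came from the platform annotation. Samples were grouped by their titles. Alternatives were quantile normalization, median centring, a filter on the dimmest 25%, the arrays of a contrast alone, the replicate number as a block, array weights, clusters with 1 symbol, and leaving out each array.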

Additional observations from a re-analysis of the deposited data

How the results depend on the processing

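Of 193 alternative values for the 13 called results of the 36 genes, 137 kept the call and 56 lost it. None changed direction, but many could not. The replicate block, array weights, the filter, the arrays of the contrast alone and single-symbol clusters left the log2 differences as they were. So did leaving out an array of a group outside the contrast. Only quantile normalization, median centring and leaving out an array of the contrast itself could have changed a direction. The count of genes called with prednisolone in control shRNA cells, 2 as reported, was 1 with median centring, 0 with the arrays of the contrast alone, 0 with array weights and 0 to 1 with an array left out. Its median, -0.52, ranged from -0.73 to -0.30 with an array left out. On the BTG1 shRNA arrays the median prednisolone difference ranged from -0.35 to -0.04 with an array left out. For BTG1 shRNA against control shRNA under vehicle the count was 1 with median centring and 0 to 9 with an array left out, and the median was 0.24 after quantile normalization and 0.15 to 0.62 with an array left out. Under prednisolone the count ranged from 3 to 14 with an array left out. The median difference of the 2 prednisolone effects was 0.52 after quantile normalization, 0.13 with median centring and 0.17 to 0.50 with an array left out. The cause of these shifts was not tested. Where a group was left with 1 array, that array was assumed to vary like the others. In the labels the duplicates share only a number. Correlations of replicate differences between groups were all positive. The value was 0.00722 for BTG1 shRNA vehicle with control shRNA prednisolone and 0.263 to 0.593 for the other pairs of groups. Arrays 1 and 2 thus differed partly in the same way in most pairs of groups, and the cause was not tested. With a replicate block the calls were 5 and 0 for prednisolone with control and BTG1 shRNA, 16 and 6 for BTG1 shRNA against control shRNA under prednisolone and vehicle, and 0 for the difference of effects. The arrays of the contrast alone could not be used for that last result, which needs all 8. The values used hold no background signal, so how far the dimmer genes, such as BYSL, lie above background is unknown.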

Other observations

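The genes also differed between duplicates, a pattern noticed after the values were seen and given without a test. On the control shRNA vehicle arrays 28 of the 36 genes were lower on array 1 than on array 2, with a median difference of -0.42, while 61.2% of all clusters were higher on array 1. Array 1 of that group is the narrower one (interquartile range 2.95 log2 units, against 3.55 on array 2). Lower on array 1 in all 4 groups were 9 of the 36 genes, against 7.70% of all clusters. For these counts the share in the brightest 25% of clusters was not taken, so they may reflect the brightness of the genes. By more than 0.3 log2 units in at least 3 groups, array 1 was lower for UTP15, WDR75, NOP58, WDR12, NOP16, NCL and NPM1. These are 7 of 36 genes, where 6.78% of all clusters and 14.0% of the brightest 25% did so. Whether culture, extraction or hybridisation separates arrays 1 and 2 is not given in the labels.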
